A study of Mus musculus with 3 samples.

Results

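Mature B cells carrying MHC class II transcripts were examined in the meninges of male C57BL/6J mice, by single-cell RNA sequencing of mice kept in the home cage (HC) or put through chronic social defeat (CSD), a model in which a test mouse is exposed over days to a dominant, aggressive mouse. Members were chosen by their own measured transcripts: a cell entered when the B cell receptor genes Cd79a and Cd79b made up at least 0.15% of its unique molecular identifiers (UMIs, one per captured transcript) with at least 2 UMIs, when the pro-B genes Vpreb1, Igll1 and Dntt made up less than 0.15%, and when H2-Aa, H2-Ab1, H2-Eb1 and Cd74 made up at least 1.5%. These limits kept 432 of 7057 cells. There were 3 libraries, each from meninges pooled from 4 mice aged 10 to 12 weeks: 2 HC pools of unstressed mice (HC replicates 1 and 2), and 1 CSD pool (CSD replicate 1) taken after 14 days of defeat, of mice picked as stress-susceptible by their behaviour, the labels naming urine scent marking and open field tests. Live nucleated cells were sorted with no gate on a B cell marker, and each library had its own lane on the same chip, so with 1 CSD pool the lane, the pool and the stress cannot be told apart.

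B cells begin in the bone marrow as pro-B cells, which carry a surrogate light chain, and pass through pre-B and immature stages before they circulate as mature cells. Mature B cells take up antigen through the B cell receptor and present peptides of it on MHC class II to helper T cells. The class II alpha and beta chains (H2-Aa, H2-Ab1, H2-Eb1) assemble on the invariant chain Cd74, H2-DM exchanges the invariant chain fragment for antigen peptide, and H2-DO, which B cells express, restrains H2-DM. The meninges hold B cells at several of these stages, some supplied by the bone marrow of the overlying skull.

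The class II genes share a promoter design with a Y box, whose core reads CCAAT, or ATTGG on the opposite strand. The stretches below show that core in capitals with 25 bases on either side, for the class II genes described in the results that had a RefSeq promoter in GRCm38.p6, each written 5′ to 3′ on the strand of its gene.
H2-Aa (chr17:34287842-34287896, minus strand): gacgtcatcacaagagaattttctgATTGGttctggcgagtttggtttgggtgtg
H2-Eb1 (chr17:34305783-34305837, plus strand): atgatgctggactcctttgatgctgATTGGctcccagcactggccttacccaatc
H2-DMb1 (chr17:34153105-34153159, plus strand): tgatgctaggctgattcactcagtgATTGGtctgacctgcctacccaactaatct
H2-DMb2 (chr17:34145134-34145188, plus strand): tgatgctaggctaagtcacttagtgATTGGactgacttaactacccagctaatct
H2-Oa (chr17:34092311-34092365, plus strand): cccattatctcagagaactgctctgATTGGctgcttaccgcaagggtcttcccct
H2-Ob (chr17:34238823-34238877, plus strand): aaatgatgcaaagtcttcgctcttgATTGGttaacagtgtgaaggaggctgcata
H2-DMa (chr17:34125295-34125349, plus strand): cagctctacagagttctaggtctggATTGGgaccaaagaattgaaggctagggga

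Of 9 class II genes looked for, 7 had a promoter in the table, and all 7 held CCAAT on one strand or the other in the 250 bases before the annotated start. The same letters occurred in 33.8% of all 32851 promoters searched over that length. The core began 48 bases before the start in H2-Aa, 59 in H2-Eb1, 61 in H2-DMb1, 90 in H2-DMb2, 43 in H2-Oa and 57 in H2-Ob. H2-Eb1 also held CCAAT itself, beginning 35 bases before the start, whereas in H2-DMa, at the only promoter of its 2 that held the letters, it began 198 bases before the start. A match of 5 letters is a description of the sequence and was not tied to binding of any factor.

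Where 3 values follow each other below, their order is the first HC pool, the second HC pool and the CSD pool. The members numbered 152, 154 and 126, and gave 251900, 263602 and 184061 UMIs in all. Their median depth was 1580, 1645 and 1369 UMIs per cell. In the summed members 1 UMI corresponded to 3.97, 3.79 and 5.43 CPM, the count of a gene scaled to a total of 1000000 UMIs. Whole libraries held 9891861, 8814690 and 10206236 UMIs. Transcripts free in the suspension reached every droplet: judged from neutrophil genes, which B cells do not make, free RNA came to 29.5%, 24.9% and 25.2% of the members' UMIs. No barcode was shared by members of different libraries, although 17 barcodes were shared among all cells, and the barcode of 4 members also marked a cell of another library. The doublet caller Scrublet marked 0, 0 and 2 of the members. Its automatic threshold marked only 0.539% and 0.940% of all cells in the HC libraries, while in CSD replicate 1, where that threshold marked too few or too many cells, the highest-scoring 5.1% were taken, so the 3 numbers cannot be compared.

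Among cells with Cd79 transcripts and few surrogate light chain transcripts, the MHC class II share divided into a low and a high range with few cells between. There were 355 cells under 0.5%, 60 from 0.5 to 1%, 42 from 1 to 1.5%, 52 from 1.5 to 2%, 190 from 2 to 3%, 148 from 3 to 4%, 40 from 4 to 5% and 2 above 5%. The limit of 1.5% lay in the sparse stretch. The 3 members nearest to it had 1.504%, 1.504% and 1.522%, and the 3 cells just outside had 1.472%, 1.480% and 1.492%. The median share of the members was 2.77%, 2.97% and 2.81%. In T and NK cells of the same libraries it was 0.269%, 0.227% and 0.0887%. A total of 35 members had a UMI of Vpreb1, Igll1 or Dntt, below the limit of the rule.

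**Figure D1:**
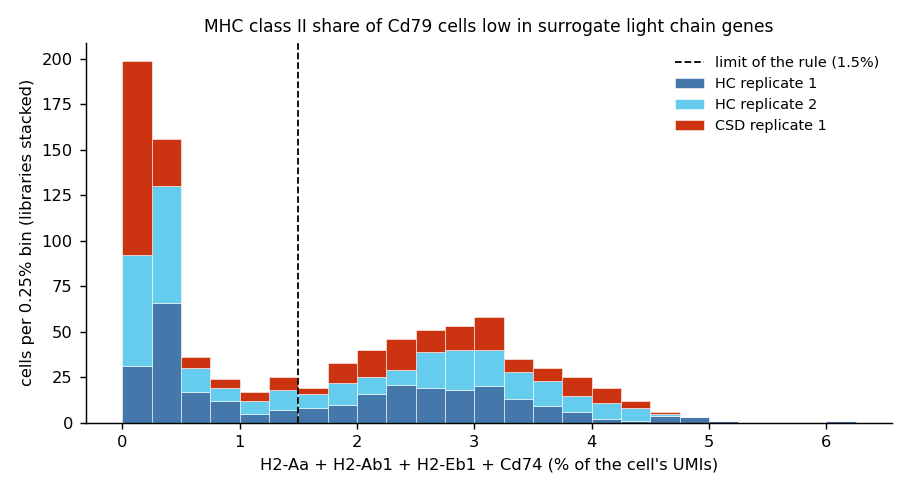
Cells with Cd79 transcripts and low surrogate light chain genes, counted in bins of 0.25% by the MHC class II share of their UMIs (x axis, %), with the 3 libraries stacked (y axis, cells). The dashed line is the limit of 1.5%: 457 cells lie below it and 432 at or above it, with the sparse stretch between 0.5% and 2%.

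The label was checked on 5 markers. Cd79a, the signalling chain of the B cell receptor, belongs to the rule, and it stood at 2354, 2542 and 2401 CPM in the members. Ms4a1, which encodes CD20, stood at 1092, 1036 and 799 CPM in the members, against 521, 419 and 279 CPM in pre-B and immature B cells and 13.6, 21.9 and 9.0 CPM in T and NK cells. Pre-B and immature B cells were the 457 Cd79 cells with low surrogate light chain genes and an MHC class II share under 1.5%. Fcmr, the receptor for the Fc part of IgM, stood at 584, 759 and 647 CPM in the members and at 205, 213 and 130 CPM in pre-B and immature B cells. Every library therefore held both markers at higher levels in the members.

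Fcer2a, the low-affinity IgE receptor CD23 found on follicular B cells, stood at 139, 156 and 141 CPM in the members and at 16.5, 19.6 and 9.97 CPM in pre-B and immature B cells. Bank1, a scaffold protein of B cell receptor signalling, stood at 389, 406 and 402 CPM against 62.7, 56.3 and 33.2 CPM. In each library both genes were higher in the members than in the less mature cells. Ms4a1, Fcmr, Fcer2a and Bank1, which the rule did not use, were thus above their level in pre-B and immature B cells in each library. In T and NK cells Fcmr stood at 24.9, 38.3 and 18.0 CPM, Fcer2a at 6.78, 8.20 and 2.25 CPM and Bank1 at 22.6, 16.4 and 2.25 CPM. Pre-B and immature B cells also lay above T and NK cells, which were gated outside the Cd79 cells, so that contrast does not bear on maturity. The name mature B cells was kept. These contrasts describe the outcome of the rule, which sorted the same cells, and no test was made of them.

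Single cells carried these transcripts sparsely. With every cell thinned to 500 UMIs, at least 1 UMI of Ms4a1 was found in 34.9%, 35.1% and 28.6% of members. The shares were 25.4%, 17.2% and 14.7% in pre-B and immature B cells, and 1.12%, 0.725% and 0.515% in T and NK cells, which should lack the gene. Before thinning, 69.7%, 70.1% and 60.3% of members had a UMI of Ms4a1, against 3.37%, 5.80% and 1.55% of T and NK cells, whose median depths were 2176, 2498 and 2008 UMIs. Any of Ms4a1, Fcmr, Fcer2a and Bank1 was found in 60.5%, 61.0% and 58.7% of thinned members, in 33.3%, 25.8% and 20.5% of thinned pre-B and immature B cells and in 3.37%, 4.35% and 1.55% of thinned T and NK cells.

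**Figure D2:**
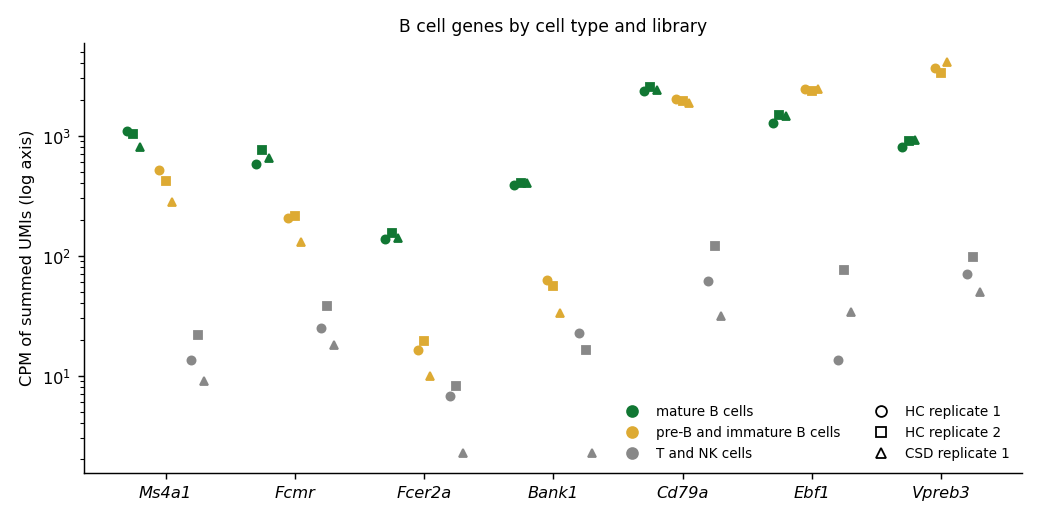
Levels of 7 B cell genes as CPM of summed UMIs (log axis), with 1 point per library in mature B cells, pre-B and immature B cells, and T and NK cells. Ms4a1, Fcmr, Fcer2a and Bank1 sit highest in mature B cells in every library, and Ebf1 and Vpreb3 sit highest in pre-B and immature B cells.

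Against pre-B and immature B cells, levels were compared within each library as the log2 ratio of CPM from summed UMIs, with 0.5 UMIs added. Over the 1744 genes with a UMI in more than 15% of either cell type, 43 genes (2.47%) were over 2-fold higher in mature B cells in all 3 libraries and 122 genes (7%) over 2-fold lower. Over the same genes, 28 were higher with every cell thinned to 500 UMIs and 190 lower with free RNA subtracted. The median ratio of all 1744 genes was -0.29. Since the rule divided the cells by class II transcripts, these counts describe the division and carry no test. A gene could also enter through only the cell type where it was high, so the filter itself favoured that direction.

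The MHC class II pathway was compared outside the 4 genes of the rule. Of 13 genes listed, 8 could be compared, 5 were over 2-fold higher in all 3 libraries and 0 over 2-fold lower, with a median log2 ratio of 2.03. These 5 were the subunits of H2-DM and H2-DO. Lgmn, also compared, was lower in the members in every library, at 87.3, 102 and 54.3 CPM against 168, 140 and 96.4 CPM. H2-DMb2 stood at 738, 888 and 690 CPM in the members and at 56.1, 113 and 69.8 CPM in pre-B and immature B cells, a mean log2 ratio of 3.31 ± 0.36 (SD, n = 3 libraries). H2-DMa stood at 607, 713 and 723 CPM against 142, 157 and 110 CPM, and H2-DMb1 at 143, 175 and 163 CPM against 59.4, 49.0 and 29.9 CPM. The paired chain genes of the peptide exchanger thus lay above the less mature cells in every library. Free RNA held H2-DMa at 335, 310 and 232 CPM, H2-DMb1 at 202, 165 and 111 CPM and H2-DMb2 at 65.5, 84.6 and 44.7 CPM. For H2-DMb1 that was above the members in HC replicate 1, and the part of free RNA in these levels was not tested.

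H2-Oa, the alpha chain of H2-DO, stood at 322, 300 and 244 CPM in the members against 52.8, 58.8 and 43.2 CPM in pre-B and immature B cells, a mean log2 ratio of 2.45 ± 0.12 (SD, n = 3 libraries). H2-Ob, its beta chain, stood at 365, 334 and 304 CPM against 85.8, 58.8 and 66.5 CPM. Ctss, the protease that trims the invariant chain, stood at 726, 634 and 674 CPM against 406, 348 and 312 CPM, a difference under 2-fold in both HC libraries. Free RNA also held Ctss, at 1070, 962 and 611 CPM in droplets of at most 100 UMIs, so part of that level need not come from B cells, and that part was not tested. Ciita, the coactivator of class II genes, was counted only at 7.94, 45.5 and 76.1 CPM in the members, too few UMIs to enter the comparison.

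Named by size outside the rule, the genes most above pre-B and immature B cells were Gm43603, a predicted gene, H2-DMb2, Fcer2a, Bank1, Tspan32, Bmyc, Lmo2, Gimap6, Ly6a and H2-Oa. Gm43603 stood at 520, 436 and 522 CPM against 85.8, 36.8 and 26.6 CPM. Tspan32, a tetraspanin of blood cells, had a mean log2 ratio of 2.75 ± 0.57 (SD, n = 3 libraries), Bmyc, a relative of Myc, 2.67 ± 0.49, and Lmo2, a LIM-domain transcription cofactor, 2.57 ± 0.15. Gimap6, a GTPase of lymphocytes, had 2.55 ± 0.37, with 369, 349 and 500 CPM in the members and 407, 394 and 446 CPM in T and NK cells of the same libraries. It was thus higher in T and NK cells than in the members in both HC libraries and lower in the CSD library. Ly6a, which encodes Sca-1, had the widest spread of the 10, with 2.53 ± 1.27.

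Of 18 mature B cell markers listed, 14 could be compared, 8 were over 2-fold higher and 0 over 2-fold lower, with a median log2 ratio of 1.59. Beside the markers above they included Ltb, the lymphotoxin beta subunit, at 965, 1055 and 1135 CPM in the members against 188, 235 and 163 CPM. Cd55, a complement regulator, had a mean log2 ratio of 2.38 ± 0.82, and Cd180, a Toll-like receptor relative of B cells, 2.04 ± 0.31 (SD, n = 3 libraries). The lineage genes differed less: Pax5, the B lineage transcription factor, stood at 147, 133 and 158 CPM against 165, 110 and 106 CPM. Ebf1, an early B lineage factor, was higher in the less mature cells, with a mean log2 ratio of -0.77 ± 0.15.

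Homing receptors and costimulatory molecules were partly measurable. Of 15 homing receptor genes listed, 4 could be compared and 2 were over 2-fold higher. Among these was Ccr7, the receptor that guides lymphocytes to lymph nodes, at 179, 212 and 152 CPM against 82.5, 93.1 and 59.8 CPM. Klf2, a transcription factor of circulating lymphocytes, stood at 1116, 1946 and 1467 CPM against 693, 946 and 678 CPM, above in each library but over 2-fold in only HC replicate 2 and CSD replicate 1. Of 7 costimulation genes, 1 could be compared: Cd83, an activation marker that stabilises class II at the surface, at 115, 186 and 76.1 CPM against 39.6, 26.9 and 16.6 CPM. Cd86 stood at 71.5, 133 and 76.1 CPM, Cd40 at 71.5, 56.9 and 65.2 CPM, Cd80 had 1 UMI in HC replicate 1 and 0 elsewhere, and Tnfrsf14 had 0.

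Receptor signalling genes were compared in the same way. Of 16 B cell receptor signalling genes, 8 could be compared, with a median log2 ratio of -0.10. Of these, 0 were over 2-fold higher or lower in all 3 libraries, beside 2.47% and 7% of all 1744 genes. Blnk, an adaptor of the receptor, was lower in the members in every library, at 175, 144 and 152 CPM against 310, 323 and 322 CPM, over 2-fold in the second HC pool and the CSD pool. Those with many UMIs included Cd81, a tetraspanin, and Grb2, an adaptor. Of 10 inhibitory receptor genes, 5 could be compared and 1 was over 2-fold higher, Fcrl1, at 139, 152 and 130 CPM against 46.2, 29.4 and 23.3 CPM. Siglecg, which dampens receptor signalling, stood at 738, 501 and 630 CPM in the members against 620, 590 and 638 CPM, and Ptpn6, a phosphatase on that pathway, at 516, 448 and 391 CPM against 284, 274 and 266 CPM. Cd72 was lower in the members, at 298, 448 and 304 CPM against 689, 595 and 718 CPM. Of 11 survival genes, 3 could be compared, and Tnfrsf13c, the receptor for the B cell survival factor BAFF, stood at 377, 379 and 283 CPM against 234, 173.9 and 156 CPM.

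Most genes of earlier stages were low. Of 14 immature and precursor genes, 8 could be compared, of which 3 passed the filter in the members. The rest entered only through pre-B and immature B cells, so that the filter itself favoured a lower level in the members. Of the 8, 0 were over 2-fold higher and 7 over 2-fold lower, with a median log2 ratio of -2.56. The exception was Ly6d, a surface protein of B lineage cells and the most abundant of the list, at 3089, 3035 and 2934 CPM in the members against 2527, 2411 and 2506 CPM, above in every library. Cd24a, a surface glycoprotein that falls as B cells mature, stood at 524, 368 and 375 CPM against 1112, 1110 and 970 CPM. Sox4, a transcription factor of B cell precursors, stood at 23.8, 30.3 and 21.7 CPM in the members against 320, 463 and 459 CPM. Il7r, the receptor for a growth factor of precursors, stood at 11.9, 26.6 and 5.43 CPM against 198, 162 and 309 CPM, and Smarca4, a chromatin remodeller, at 23.8, 53.1 and 38.0 CPM against 303, 463 and 402 CPM. Free RNA held Sox4 at 20.6, 34.8 and 35.8 CPM in empty droplets. It made up 29.5%, 24.9% and 25.2% of the members' UMIs, and its part in their Sox4 level was not tested. Vpreb3, which persists through the immature stage, remained measurable, at 806, 907 and 924 CPM against 3691, 3337 and 4097 CPM, and above the 70.1, 98.4 and 49.5 CPM of T and NK cells.

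Rag1, which cuts the immunoglobulin loci, had 0 UMIs in the members of all 3 libraries and 75.9, 61.2 and 53.2 CPM in pre-B and immature B cells. Taking 3 UMIs as the most that a count of 0 allows in each library, Rag1 was at least 6.37-fold lower in the first HC pool, 5.38-fold in the second and 3.26-fold in the CSD pool. Rag2 and Erg also had 0 UMIs. The other genes furthest below pre-B and immature B cells were Hist1h2ap, a replication histone, at 230, 60.7 and 173.9 CPM against 3747, 1227 and 2359 CPM, with a mean log2 ratio of -4.02 ± 0.28, and Myl4, Tifa, Lockd, Cecr2 and Xrcc6, with mean log2 ratios from -3.81 to -3.44. Nmral1 and Spns3 had 0 UMIs in the CSD members, and with 3 UMIs set there their mean log2 ratios were at most -2.93 and -2.58. Xrcc6, which encodes the DNA repair protein Ku70, stood at 15.9, 22.8 and 27.2 CPM in the members against 251, 228 and 292 CPM.

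The cell cycle genes followed the same order. All 7 of 12 listed genes that could be compared were over 2-fold lower in the members in every library, with a median log2 ratio of -2.84. Of the 7, 4 passed the filter in the members, and the rest entered only through pre-B and immature B cells. For the rest, the filter itself favoured this direction. Hmgb2, a chromatin protein of dividing cells, stood at 234, 201 and 326 CPM in the members against 2075, 2183 and 2143 CPM, and Stmn1, a tubulin-binding protein, at 187, 220 and 244 CPM against 1217, 1164 and 1376 CPM. Both were also below their free RNA levels, which were 655, 948 and 1023 CPM for Hmgb2 and 549, 516 and 599 CPM for Stmn1. Top2a, which untangles replicated DNA, stood at 39.7, 41.7 and 21.7 CPM in the members.

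**Figure D3:**
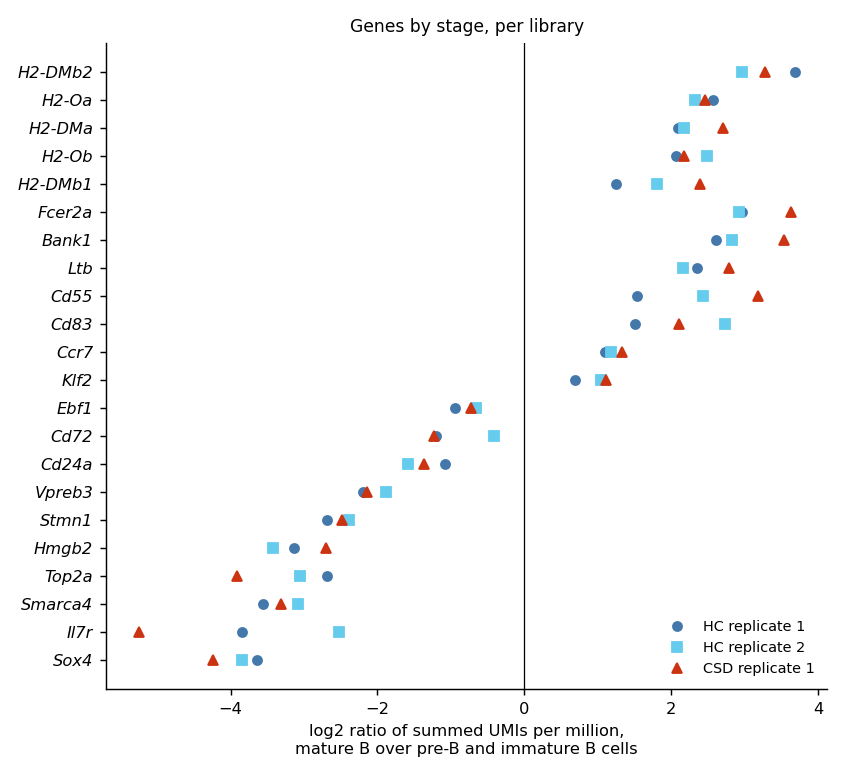
Log2 ratio of mature B cells over pre-B and immature B cells (x axis) for 22 named genes, with 1 point per library and the vertical line at equal levels. The H2-DM and H2-DO genes lie at 1.2 or more in every library, the cell cycle and precursor genes lie below 0 in every library, and Il7r, with 3, 7 and 1 UMIs in the members, spreads most.

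Genes of other B cell states were few in UMIs, apart from single members. Of 8 germinal centre genes, Mef2b, Gcsam and Mybl1 had 0 UMIs in the members, Bcl6 had 2, 2 and 1, S1pr2 1, 0 and 0 and Fas 4, 1 and 3 UMIs. The summed level of the list was 27.8, 15.2 and 21.7 CPM, below the 37.3, 52.2 and 60.8 CPM of free RNA. Free RNA made up only part of the members' UMIs, so its CPM is not the level that it adds to them. The 8 plasma cell genes summed to 409, 512 and 473 CPM in the members, above the 247, 374 and 297 CPM of free RNA. Of these genes, Jchain, which joins secreted antibodies, stood at 19.8, 45.5 and 32.6 CPM, under its free RNA levels of 108, 186 and 152 CPM, Xbp1, the secretory regulator, stood at 71.5, 68.3 and 38.0 CPM, and Derl3 had 0 UMIs. Mzb1, an endoplasmic reticulum protein of B cells, led the list at 286, 349 and 364 CPM, above the 41.1, 93.0 and 48.3 CPM of free RNA and below the 459, 539 and 495 CPM of pre-B and immature B cells.

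Of 10 B-1 cell genes, Cd5 had 0 UMIs, and the 3 with most UMIs were S100a6 at 671, 690 and 891 CPM, Anxa2 at 119, 106 and 92.4 CPM and Ahnak at 55.6, 34.1 and 10.9 CPM, each below its level in T and NK cells in every library. Of 8 age-associated B cell genes, Tbx21 and Itgax each had 1 UMI in HC replicate 1 and 0 elsewhere, while Nkg7 at 75.4, 114 and 109 CPM, Zeb2 at 59.5, 91.0 and 54.3 CPM and Cd68 at 59.5, 45.5 and 27.2 CPM led the list. Of 10 marginal zone genes, Plac8 and Mzb1 could be compared and neither was over 2-fold apart, and Tm6sf1 stood at 75.4, 49.3 and 54.3 CPM. Cr2, the complement receptor found on follicular and marginal zone B cells, had 63.5, 37.9 and 21.7 CPM in the members, at most 2.45 CPM in pre-B and immature B cells, and 2.57, 0.94 and 1.79 CPM in free RNA. Immunoglobulin genes were not analysed here.

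Markers of other cell types were counted in the members as follows. T cell markers summed to 51.6, 156 and 76.1 CPM, with Cd4 at 0 and Lck leading, against 2419, 2351 and 2432 CPM in T and NK cells. NK cell markers summed to 35.7, 37.9 and 32.6 CPM, with Gzma leading. Dendritic cell markers summed to 43.7, 72.1 and 48.9 CPM, with Siglech leading, against 239, 192 and 129 CPM in empty droplets. Of these 9 genes, Xcr1 and Clec9a were at 0 and the others were not, with Cd209a at 2, 3 and 6 UMIs. Macrophage markers summed to 8349, 6111 and 5547 CPM in the members and to 6851, 6418 and 4768 CPM in T and NK cells, with Lyz2 leading and none of the 11 at 0. Neutrophil markers, led by S100a8, summed to 33339, 33771 and 43084 CPM in the members and 34269, 41023 and 42976 CPM in T and NK cells, again with none of the 9 at 0. Both sums were higher still in empty droplets, at 24605, 17677 and 17673 CPM for macrophage and 113024, 135755 and 170711 CPM for neutrophil markers. Fibroblast markers, led by Mgp and with Col3a1 at 0, summed to 377, 489 and 81.5 CPM in the members and 441, 500 and 74.3 CPM in T and NK cells, and red cell markers, led by Hbb-bs, to 1866, 3661 and 5297 CPM and 1856, 3305 and 5177 CPM. The part of these transcripts in the results below was measured only by subtracting free RNA.

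Within the members, the MHC class II share was set against other transcripts by splitting them at 3%. There were 92, 79 and 71 members below and 58, 75 and 55 from 3 to 5%, and 2 above 5%, both in HC replicate 1. H2-Oa stood at 239, 214 and 182 CPM in the lower range and 459, 404 and 326 CPM in the upper, higher in every library. Fcmr stood at 560, 684 and 565 CPM in the lower range and 631, 850 and 753 CPM in the upper. Vpreb3 ran the other way, at 881, 1126 and 1092 CPM in the lower range and 665, 639 and 703 CPM in the upper, as did Ms4a1, at 1139, 1154 and 910 CPM in the lower range and 941, 892 and 653 CPM in the upper. H2-DMb2 was higher in the upper range in both HC libraries, at 860 and 1077 CPM against 667 and 732 CPM, and lower in CSD replicate 1, at 653 against 718 CPM. Bank1 showed no common direction. The ranges are cuts of a continuous measure, with 338 members from 2 to 4%, and no test was made.

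The share of members in each library was asked next, since the design compared HC with CSD. Mature B cells made up 5.85% of cells in the first HC pool (exact Clopper-Pearson 95% interval 4.98 to 6.82, 152 of 2599 cells), 9.05% in the second (7.73 to 10.5, 154 of 1702) and 4.57% in the CSD pool (3.82 to 5.42, 126 of 2756). CSD was the lowest of the 3. Its difference from the HC mean of 7.45% was -2.88 percentage points, where the SD of the 2 HC libraries was 2.26 points. Among Cd79 cells, the shares were 49.0% (43.3 to 54.7), 46.5% (41.1 to 52.1) and 40.3% (34.8 to 45.9). CSD was again the lowest, with a difference of -7.52 points against an HC SD of 1.77 points, but its counting interval overlapped both HC intervals. With a class II limit of 3%, the difference among all cells was -1.36 points against an HC SD of 1.48 points. Among Cd79 cells it was -3.43 points against an HC SD of 2.34 points. No test was made: 1 library can be set against the other 2 in 3 ways. Intervals cover counting error only.

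**Figure D4:**
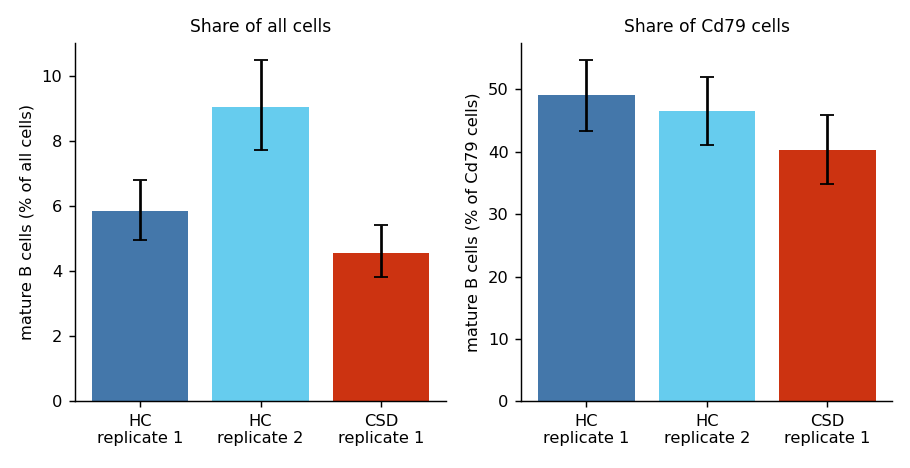
Mature B cells as a percentage of all cells (left) and of Cd79 cells (right) in each library, with bars from 0 and exact Clopper-Pearson 95% intervals. CSD replicate 1 is the lowest bar in both panels, at 4.57% and 40.3%, and on the left the 2 HC bars, at 5.85% and 9.05%, differ by more than CSD replicate 1 and HC replicate 1 do.

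With CSD set against HC inside the members, few genes passed the threshold, and none of them came from the lists of B cell genes. UMIs were summed per library and tested with edgeR's quasi-likelihood test over the 1119 genes with a UMI in more than 15% of members, with Benjamini-Hochberg adjustment over all of them. At an adjusted p under 0.05, 12 genes were called (1.07%), of which 5 rose (0.447%) and 7 fell (0.626%), and 69 genes had an unadjusted p under 0.05. Of the 12, 9 were markers of macrophages, neutrophils, fibroblasts or red cells, and Junb, Actb and Hp were in none of these marker lists. The test rests on 1 residual degree of freedom from the 2 HC libraries, which differed in their mice and in their lane. Its fit shares that spread over genes, so the p-values and standard errors below are not the spread of a single gene.

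Of 136 genes in the B cell lists, 45 passed the filter, 0 were called, and their median log2 fold change was -0.06, beside 0.00 over all genes tested. The 5 markers were not called, and of these Cd79a is a gene of the rule, as it is among the 45, so that nothing is read from its level. Ms4a1 had a log2 fold change of -0.41 ± 0.21 (SE), adjusted p = 0.768 by edgeR, and CSD lay below both HC libraries. Fcmr had -0.05 ± 0.23, Fcer2a -0.06 ± 0.39, Bank1 0.02 ± 0.27 and Cd79a -0.02 ± 0.17. The smallest unadjusted p among the 45 belonged to Cd83, at 0.0253 by edgeR's quasi-likelihood test (adjusted p = 0.602), and a log2 fold change of -0.98 ± 0.44, from 29, 49 and 14 UMIs. Cd83 also had the lowest fold change of the 45.

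By list, members of the MHC class II pathway had a median change of -0.20 on the log2 scale over 7 genes tested, with CSD above both HC libraries for 1 and below both for 4. These counts were taken on CPM after TMM normalization, which differs from the CPM printed here for single libraries, and on that scale CSD lay above both HC libraries for 34.9% of all 1119 genes and below both for 33.4%. H2-DMb2 had a log2 fold change of -0.23 ± 0.22, H2-DMa 0.14 ± 0.22 and Ctss -0.01 ± 0.22. The 4 class II genes of the rule, which had to be high in every member, stood at similar levels: H2-Ab1 at 4823, 4818 and 4759 CPM, H2-Aa at 4581, 4450 and 4678 CPM, H2-Eb1 at 2934, 3001 and 2760 CPM and Cd74 at 16344, 16973 and 16723 CPM.

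The 14 mature B cell markers tested had a median log2 fold change of -0.03, with CSD above both HC libraries for 4 and below both for 6 after TMM, and for 2 and 4 by CPM. Over all genes tested, CSD lay above both for 34.9% and below both for 33.4% after TMM, and for 34.4% and 33.4% by CPM. The 6 receptor signalling genes had -0.06, the 5 inhibitory receptor genes -0.15, the 4 homing receptor genes -0.05 and the 3 precursor genes -0.06. Of 11 survival genes, 3 were tested, with a median of -0.42 and CSD below both HC libraries for all 3, beside 33.4% of all genes. They were Tnfrsf13c at -0.42 ± 0.28, Tnfrsf13b, the receptor TACI, at -0.50 ± 0.40 and Mcl1, an antagonist of cell death, at -0.28 ± 0.39. The 4 cell cycle genes had 0.26. None of these list members was called by edgeR's quasi-likelihood test, and for the germinal centre, age-associated, dendritic, T cell and NK cell lists 0 genes passed the filter. The 2 marginal zone genes tested had a median of 0.09, the 2 B-1 genes 0.06, and the plasma cell list only Mzb1, at 0.20 ± 0.27, while Cd83 was the 1 costimulation gene.

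Interferon-stimulated genes, which the study examined in neutrophils, had a median change of 0.24 on the log2 scale over 6 of 23 genes tested in the members, with CSD above both HC libraries for 5 after TMM and for 6 by CPM, beside 34.9% and 34.4% of all genes tested, and 0 called. Ly6e stood at 2144, 2200 and 2526 CPM, with a log2 fold change of 0.22 ± 0.17, and Ifitm3 at 568, 622 and 625 CPM, with 0.08 ± 0.23. Ifi27l2a stood at 500, 429 and 505 CPM, with 0.12 ± 0.25, so that the first HC pool reached almost the CSD level. The 5 glucocorticoid-responsive genes had a median of -0.22 and none was called, with Tsc22d3, a gene induced by glucocorticoids, at 476, 618 and 712 CPM and 0.39 ± 0.23, Klf13 at 0.33 ± 0.32 and Dusp1 at -0.39 ± 0.32. The 6 MHC class I genes had 0.05, with B2m at 0.17 ± 0.18, H2-D1 at -0.04 ± 0.19 and H2-K1 at -0.05 ± 0.21. The 82 ribosomal protein genes had 0.08, with CSD above both HC libraries for 45 after TMM and for 49 by CPM, below both for 3 and 5, beside 34.9% and 34.4% of all genes above both, and 0 called, with Rps27 at -0.19 ± 0.18 and Rps19 at 0.13 ± 0.17.

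Among the 12 immediate early genes tested, the median log2 fold change was -0.23 and 1 gene fell. Junb, a subunit of the AP-1 transcription factor, stood at 711, 1058 and 494 CPM, a log2 fold change of -0.83 ± 0.23 (edgeR, adjusted p = 0.0330). CSD lay below both HC libraries, but these differed from each other by more CPM than the nearer of them differed from CSD. Junb was called under 2 of the 8 alternative settings, with doublets left out and with a class II limit of 3%, and not under the other 6. The same gene stood at 1033, 1271 and 821 CPM in T and NK cells, at 376, 529 and 419 CPM in pre-B and immature B cells and at 561, 685 and 472 CPM in free RNA. Fos, its partner, had 0.11 ± 0.22, and Nfkbia, an inhibitor of NF-kB, -0.36 ± 0.24. Actb, cytoskeletal actin, fell as well, from 4367 and 8380 CPM to 3564 CPM, a log2 fold change of -0.82 ± 0.18 (edgeR, adjusted p = 0.000975). Its HC libraries differed from each other by more than the first of them differed from CSD, and in T and NK cells it stood at 4380, 8037 and 4356 CPM.

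The remaining calls were genes that B cells are not known to make. Mgp, a matrix protein of fibroblasts, fell from 258 and 372 CPM to 38.0 CPM, a log2 fold change of -3.03 ± 0.46 (edgeR, adjusted p = 1.2e-07). In T and NK cells of the same libraries Mgp stood at 269, 361 and 29.2 CPM, and in free RNA at 1686, 1353 and 572 CPM. The complement genes C1qa, C1qb and C1qc and Apoe, all of macrophages, fell with log2 fold changes of -0.99 ± 0.27, -1.28 ± 0.31, -1.84 ± 0.41 and -1.02 ± 0.20. Apoe stood at 2656, 1123 and 940 CPM in the members and 1924, 806 and 547 CPM in T and NK cells. The macrophage list as a whole had 4 of 5 genes called, with a median of -1.02, and Lyz2 at 0.03 ± 0.17.

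The 5 genes that rose were 3 globins, Retnlg and Hp. The red cell list had 3 of 4 genes called and a median of 0.90, and the neutrophil list 1 of 7 and a median of 0.42. Hbb-bs, a beta globin, rose from 873 and 1597 CPM to 2554 CPM, a log2 fold change of 1.06 ± 0.18 (edgeR, adjusted p = 2.23e-06). It stood at 839, 1493 and 2428 CPM in T and NK cells and at 2473, 6278 and 12540 CPM in free RNA. Hba-a1 and Hba-a2, alpha globins, rose by 0.90 ± 0.21 and 0.91 ± 0.23 on the log2 scale. They stood at 393, 929 and 1222 CPM and at 322, 588 and 848 CPM in the members. Retnlg, a neutrophil gene, rose from 1842 and 3065 CPM to 4053 CPM, a log2 fold change of 0.74 ± 0.17, and Hp, which encodes haptoglobin and is made by neutrophils, from 155 and 353 CPM to 489 CPM, 0.95 ± 0.27. For Hba-a1, Hba-a2, Retnlg and Hp as well, the HC libraries differed from each other by more CPM than the nearer of them differed from CSD. For every one of the 12 genes, the log2 of CSD over the mean of HC had the same sign in the members, in pre-B and immature B cells, in T and NK cells and in empty droplets. All 4 came from the same 3 libraries, and no share of all genes alike in sign is given here. Sizes differed between the members and pre-B and immature B cells, at -1.85 and -0.35 for C1qc, -0.84 and -0.11 for Junb and -3.05 and -3.34 for Mgp. With the empty-droplet profile of each library subtracted, 0 genes were called at an adjusted p under 0.05, with 32 at an unadjusted p under 0.05, and DESeq2 on the sums as counted called 0, with 4 at an unadjusted p under 0.05. The fitted log2 fold changes after subtraction had the same sign as before for 9 of the 12 genes and turned for the 3 globins. That of Actb was -1.72 (unadjusted p = 0.000244, adjusted p = 0.272 by edgeR), with 470, 501 and 109 UMIs left, that of Junb -0.97, with 137, 234 and 69 left, that of Apoe -1.10, with 170, 153 and 56 left, and that of Retnlg 1.85, with 0, 194 and 243 left. Those of C1qa, C1qb, C1qc and Mgp, from -7.52 to -3.29, rest on 0 to 3 UMIs left in the CSD pool. Mgp had 0, 9 and 0 UMIs left, so HC replicate 1 was at 0 as well. The fold change of Hp was 0.39, with 0, 30 and 14 left, so the CSD pool lay between the HC pools.

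**Figure D5:**
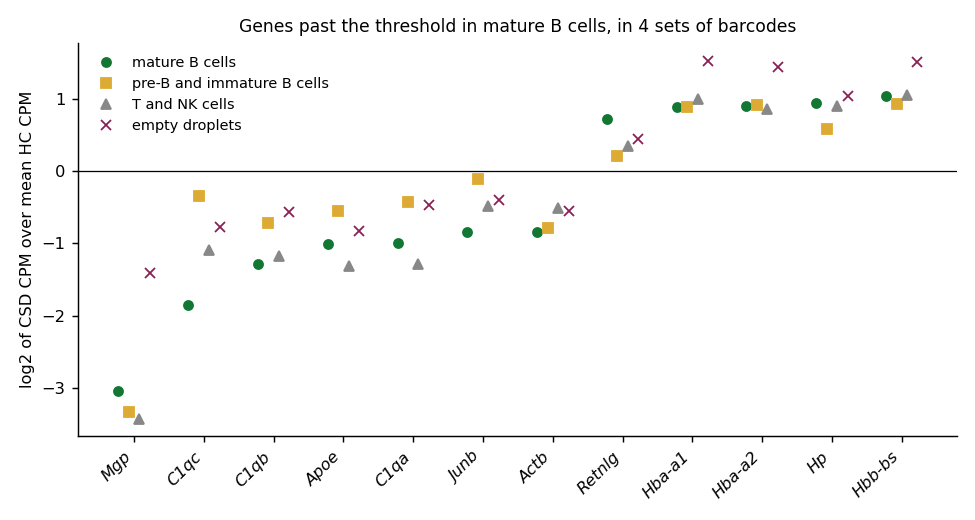
Log2 of the CSD level over the mean HC level (y axis, from CPM) for the 12 genes past the threshold in mature B cells, shown in mature B cells, pre-B and immature B cells, T and NK cells, and empty droplets. All 7 genes that fell lie below 0 and all 5 that rose lie above 0 in each of the 4, with Mgp lowest. The 4 sets come from the same libraries, and the share of all genes alike in sign is not given.

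The difference between cell types was then tested itself, as the interaction of cell type with CSD in edgeR, with library as a block. Against T and NK cells, 6 of 1716 genes were called (0.35%), all with a higher CSD difference in the members. Of these, 4 were the class II genes of the rule: H2-Ab1 stood at 4823, 4818 and 4759 CPM in the members and at 809, 790 and 333 CPM in T and NK cells. The gates fix these genes above a limit in one cell type and below it in the other, so nothing is read from the 4. The other two were Ctsh, a lysosomal cathepsin, with a difference of 1.65 ± 0.40 (SE) on the log2 scale and an adjusted p of 0.0314 by edgeR, and Retnlg, with 0.42 ± 0.10 and an adjusted p of 0.0405. Neither Ctsh nor Retnlg was called under any of the 8 alternative settings. Ctsh stood at 318, 372 and 429 CPM in the members and 129, 115 and 49.5 CPM in T and NK cells, and inside the members it was not called, with a log2 fold change of 0.32 ± 0.26. In free RNA Ctsh stood at 389, 353 and 291 CPM.

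Against pre-B and immature B cells, 0 of 1744 genes were called (0%) by edgeR, with 114 at an unadjusted p under 0.05, and 0 by DESeq2, with 6. Of the 8 alternative settings, 5 gave between 1 and 8 calls. The smallest adjusted p was that of H2-Ab1, at 0.0881 by edgeR, again a gene of the rule. The median standard error of a log2 fold change inside the members was 0.36.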

How the data were processed

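The authors sequenced 3 libraries with the 10x Genomics single cell 3′ v2 kit and, per the labels, processed them with Cell Ranger 2 on mm10. The deposited matrix holds UMI counts for 27998 genes, not normalized, with no filter on barcodes. The number after the hyphen of each barcode gave the library. From these counts, cells were barcodes with at least 500 UMIs, 174 to 4548 genes and under 8.3% mitochondrial UMIs. T and NK cells were cells outside the Cd79 gate with at least 0.1% and 2 UMIs of Cd3d, Cd3e, Cd3g, Ncr1, Klrb1c and Klre1, and under 1.5% class II. Barcodes of at most 100 UMIs stood for free RNA.

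The members and the gene lists were chosen with earlier results of these data known. Counts of the cells of a type were added up within each library. Genes with a UMI in more than 15% of cells were tested with edgeR 4.0.16 in R 4.3.3 (TMM, glmQLFit, glmQLFTest, two-sided, Benjamini-Hochberg). Standard errors were taken from the fold change and its F statistic. The authors compared cells with a Mann-Whitney test, which treats cells as replicates, so sums were tested here; their cell calling with emptyDrops was not repeated. Named genes were the 5 markers, the 10 largest changes per direction past an adjusted p of 0.05 with CSD outside both HC libraries, the 10 largest ratios to pre-B and immature B cells per direction with 1 sign in all 3 libraries, the 3 genes with most UMIs in each list, and the 5 smallest adjusted p of each interaction; other genes were named after their values were seen. Where a symbol had 2 identifiers, the one with more UMIs was read. Doublets were marked with Scrublet in scanpy 1.11.5. Alternatives were DESeq2 1.42.0, no gene filter, thinning to 500 UMIs, doublets left out, no TMM, free RNA subtracted, other limits on class II, Cd79 and UMIs, and leaving out each library. The CPM scale without TMM and the floor of 3 UMIs for genes at 0 were chosen after seeing the data. The promoter sequences came from RefSeq (GRCm38.p6). Nothing states that a pool was repeated. The 1 CSD pool gives no spread of its own, so p-values and standard errors rest on the spread between the 2 HC libraries, shared over genes by edgeR. They do not measure the spread of a single gene between these libraries. Some genes of the lists count in the totals but are not reported here by name.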

Additional observations from a re-analysis of the deposited data

Results flagged for a closer look

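A total of 6 genes differed between mature B cells and T and NK cells in their CSD difference by edgeR's interaction test, given here as log2 differences. Class II genes of the rule gave 1.28 for H2-Ab1, 0.99 for Cd74, 1.31 for H2-Aa and 1.41 for H2-Eb1. In T and NK cells these genes were lower in CSD replicate 1 than in both HC libraries, as they were in free RNA, where H2-Ab1 stood at 2999, 2559 and 1344 CPM. Ctsh gave 1.65 and Retnlg 0.42, and Retnlg in free RNA stood at 6490, 9362 and 10832 CPM. The part of free RNA in these differences was measured only by subtracting it, after which 0 genes were called.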

How the results depend on the processing

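No paired analysis was possible because HC and CSD share only replicate number 1. Of the 12 genes called in CSD against HC, 0 were called with DESeq2 and 0 with free RNA subtracted, and 2 with every cell thinned to 500 UMIs, where 339 genes were tested. The count was 8 to 12 under the other 5 settings, though 7 of the 12 called with no gene filter were among the original 12. Without either HC replicate no test was left, for want of residual degrees of freedom. With free RNA subtracted, Hbb-bs, Hba-a1 and Hba-a2 turned to log2 fold changes of -7.41, -5.16 and -5.78, with 0 UMIs of each left in CSD replicate 1. HC replicate 1 had 36, 9 and 14 UMIs of them left, and HC replicate 2 had 9, 0 and 0. The turned sign of Hba-a1 and Hba-a2 thus rests on HC replicate 1 alone, and nothing is read from these sizes. The 6 genes against T and NK cells became 0 with DESeq2, with thinning and with free RNA subtracted. The other 5 settings kept the 4 class II genes of the rule, with Cd52 added when no gene filter was used, and neither Ctsh nor Retnlg. Against pre-B and immature B cells, the count of 0 became 3 with no gene filter, 4 without TMM, 1 with free RNA subtracted, 7 with a class II limit of 3% and 8 from 1000 UMIs. Genes of the rule (H2-Ab1, H2-Aa or Cd74) were among the calls in each of these 5 settings, and genes outside it were Ccl17 and Sft2d1 with no gene filter, Retnlg without TMM, Junb, C1qc, Sltm and Ap1m1 with the limit of 3%, and S100a9, Retnlg, H3f3b, Samhd1 and Lyz2 from 1000 UMIs. The call with free RNA subtracted was H2-Aa, with a lower CSD difference in the members, where the main fit gave 0.65 in the other direction. The cause of these shifts was not tested. The CSD difference in share of all cells ranged from -4.48 to -1.28 points when an HC replicate was left out. It was -7.14 points with Cd79, T and NK cells as the denominator, chosen after seeing the data because the planned denominator left 0 cells. Among Cd79 cells the range was -8.78 to -6.27 points, and the difference was -3.43 points with a class II limit of 3%. The 43 genes over 2-fold higher than in pre-B and immature B cells numbered 28 after thinning and 48 to 52 with a library left out, and the 122 lower genes 190 with free RNA subtracted and 137 to 153 with a library left out, settings added after seeing the data. Low genes such as Ciita and Cr2 were left out by the filter on low genes.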
